A study of Mus musculus with 8 samples.

Results

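Il4, Il13, Rad50, Il5, Csf2 and Il3 are 6 neighbouring genes of mouse chromosome 11, chosen by symbol out of 18193 genes with a probe set on the array. A probe set is the group of short probes that reads 1 transcript. Of 45101 probe sets 7 carried one of these symbols alone, 2 of them for Rad50, and the one with the highest mean over the 8 arrays stood for its gene. All 6 genes passed the filter on low values, a log2 level above 3.13 on at least 2 arrays, although Il5 passed it through Th2 and 1 Th1 array. Transcript levels were read on 8 Affymetrix arrays, 2 to a group, for 4 groups. Tfh cells here were splenic CD4+CXCR5+ T cells of C57BL/6 mice, sorted by flow cytometry 7 days after immunization with the protein KLH and then stimulated for 4 h in vitro with anti-CD3. The Th1, Th2 and Th17 groups started from naive CD4 T cells of spleen and lymph node of OT-II mice, which carry a transgenic T cell receptor for an ovalbumin peptide on the C57BL/6 background and were 6 to 8 weeks old. These cells were cultured for 5 days with OT-II peptide and antigen-presenting cells (APC) under Th1, Th2 or Th17 conditions. The labels give no restimulation for the cultured cells, and they say neither whether APC were removed nor whether the replicates are separate animals or cultures. Cell type, source, receptor and handling therefore changed together between Tfh and the rest and cannot be told apart, and a p-value measures only how far these samples spread, which may be a technical matter.

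Helper T cells are known by the cytokines they secrete. IL-4, IL-5 and IL-13 are the type 2 cytokines, which act against worms and in allergy, and their genes lie side by side with Rad50, a DNA repair gene whose far end holds a locus control region for them. In follicles, IL-4 from Tfh cells is known for directing B cells to switch antibody class. Csf2 and Il3 lie together further along and encode GM-CSF and IL-3, growth factors of myeloid and other blood cells that several helper types make. By gene order in RefSeq, no other protein-coding gene lay between Il4 and Il13, Il13 and Rad50, Rad50 and Il5, or Csf2 and Il3, and 6 lay between Il5 and Csf2.

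The deposited values are on a log2 scale, so a difference of 1 is a doubling. The Tfh arrays were distributed differently, with a median tested gene 0.85, 0.84 and 0.83 log2 units above Th1, Th2 and Th17, which quantile normalization turned to -0.21, -0.20 and -0.19, and a shift of the arrays to 1 median left at 0.46, 0.47 and 0.43. They also varied less, with a median absolute difference between the 2 arrays of 0.08 over 11178 tested genes. In Th1 this was 0.30, in Th2 0.19 and in Th17 0.31. The T cell gene Cd3e stood at 9.71 to 13.03 and Cd4 at 8.61 to 11.84 over the 8 arrays. Cxcr5, the sorting marker, was at 11.25 and 11.20 in Tfh and at 3.34 to 8.12 in the cultured arrays. Ifng, the Th1 cytokine, was highest on the Th1 arrays (15.39 and 15.07) and Il17a, the Th17 cytokine, on the Th17 arrays (14.35 and 13.93).

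Il4, Il13 and Il5 were highest in Th2, on both arrays, while Csf2 and Il3 were highest in Th1 and high in Th2 too. Rad50 stayed within 1 log2 unit over all 8 arrays. The lowest group was Th17 for Il4 and Il13 and Tfh for Il5, Csf2 and Il3. The genes of the cluster thus followed different orders over the helper types. The first 3 cytokines had their highest mean in Th2 and the last 2 in Th1.

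**Figure D1:**
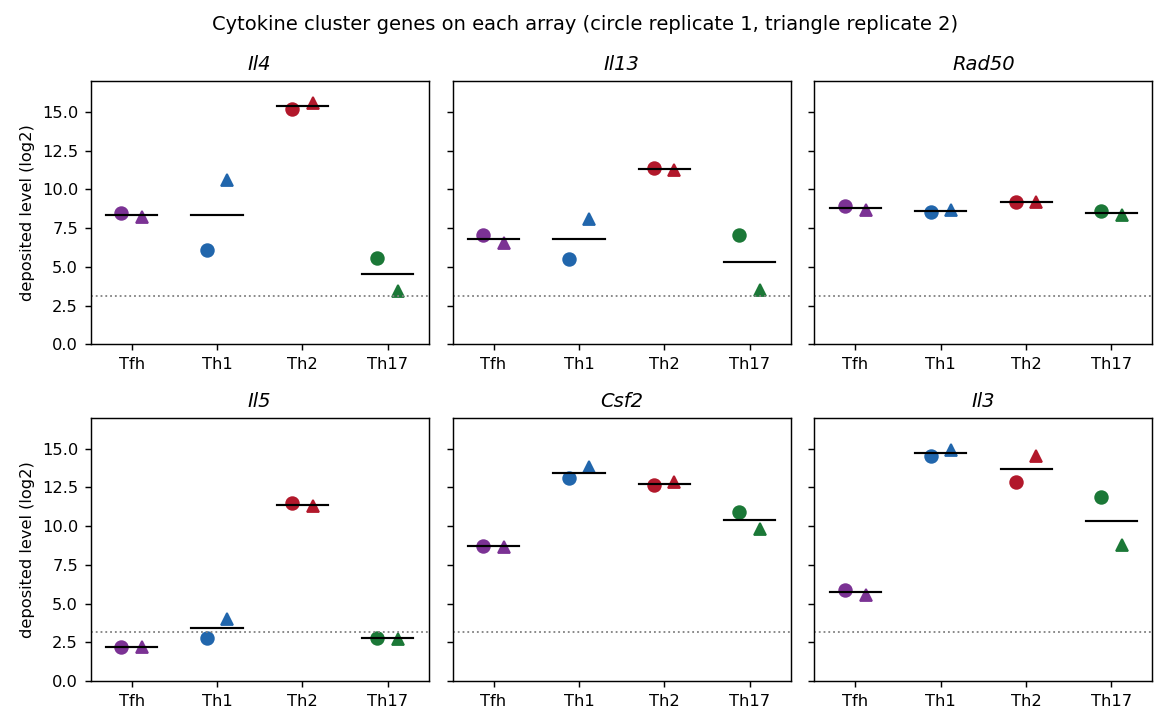
Deposited log2 level (vertical axis) of each of the 6 genes on the 8 arrays, by group; circles are replicate 1, triangles replicate 2, bars the group mean of 2 arrays, and the dotted line the filter level of 3.13. Both Th2 arrays stand above all others for Il4, Il13 and Il5, the Tfh arrays lie lowest for Il5, Csf2 and Il3, and the Rad50 levels lie between 8.33 and 9.17.

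Il4 encodes the cytokine that both marks Th2 cells and drives their differentiation. Its level was 15.20 and 15.57 on the Th2 arrays, 8.49 and 8.25 in Tfh, 6.11 and 10.60 in Th1, and 5.54 and 3.46 in Th17. The Th2 arrays were above all others, Tfh lay inside the range of Th1, and both Tfh arrays were above both Th17 arrays. In Th2 the probe set ranked above 99.8% of all probe sets of its array, against 73.3% and 75.3% in Tfh. In Th1 the share was 69.5% on replicate 1 and 93.8% on replicate 2, and on the lower Th17 array it was 55.0%. The order of the group means was Th2 (15.39 ± 0.26, SD, n = 2), Tfh (8.37 ± 0.17), Th1 (8.36 ± 3.18) and Th17 (4.50 ± 1.47).

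Differences were tested with limma, which pools the spread of all 8 arrays, and a call needed a difference of at least 1 log2 unit with an adjusted p (Benjamini-Hochberg, over the 11178 tested genes) under 0.05. Il4 was lower in Tfh than in Th2 by 7.02 (SE 1.47, adjusted p = 0.0072), and this call held without each array in turn. Against Th1 the difference was 0.01 (95% interval -3.61 to 3.63), a range too wide to call the groups alike. Without Th1 replicate 1 it was -2.23 (adjusted p = 0.0755). Against Th17 Il4 was higher in Tfh by 3.87 but missed the threshold (adjusted p = 0.0606); it was called without Th1 replicate 1 (adjusted p = 0.00707) or Th1 replicate 2 (0.00712).

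Among the cultured types Il4 differed most between Th2 and Th17, by 10.88 (SE 1.47, adjusted p = 0.0497). That call lay at the threshold, and leaving out any Tfh, Th2 or Th17 array ended it: Tfh replicate 1 (adjusted p = 0.168), Tfh replicate 2 (0.17), Th2 replicate 1 (0.179), Th2 replicate 2 (0.156), Th17 replicate 1 (0.0711) or Th17 replicate 2 (0.121). Th2 stood 7.03 above Th1 without a call (adjusted p = 0.103). The Th1 arrays differed from each other by 4.50, and without Th1 replicate 2, the one with 10.60, the difference was 9.28 and called (adjusted p = 0.0193).

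Il13 encodes a cytokine that shares a receptor chain with IL-4 and acts on epithelium, smooth muscle and macrophages. Its level was 11.39 and 11.22 in Th2, 7.03 and 6.52 in Tfh, 5.49 and 8.07 in Th1, and 7.08 and 3.49 in Th17. Only the Th2 arrays stood apart. Tfh lay within the range of Th1 and of Th17. Il13 was lower in Tfh than in Th2 by 4.53 (SE 1.32, adjusted p = 0.0249). It lost the call when Tfh replicate 1 (adjusted p = 0.0821), Tfh replicate 2 (0.108), Th2 replicate 1 (0.0908) or Th2 replicate 2 (0.0817) was left out. The difference of Tfh from Th1 was 0.00 (95% interval -3.26 to 3.25) and from Th17 1.49 (-1.77 to 4.74). Th2 stood 4.53 above Th1 and 6.02 above Th17, and neither passed the threshold (adjusted p = 0.193 and 0.14).

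Il5, the growth factor of eosinophils, was alone of the 6 in having arrays below the filter level. It stood at 11.51 and 11.28 on the Th2 arrays and at 4.02 on Th1 replicate 2. On the other 5 arrays it was below the filter level: 2.21 and 2.19 in Tfh, 2.76 on Th1 replicate 1, and 2.76 and 2.72 in Th17. Such low values are near the floor of the scale, the 25th percentile of all probe sets being 2.37 to 2.43, so differences there say little about amounts and a fold change against them is compressed. Il5 was higher in Th2 than in Th1 by 8.00 (SE 0.40, adjusted p = 0.0013) and than in Th17 by 8.65 (adjusted p = 0.000815), and lower in Tfh than in Th2 by 9.19 (adjusted p = 2.19e-05). These 3 calls held without each array in turn. The filter needed only 2 arrays, however, and the Th2 arrays alone met it, while all Tfh and Th17 arrays were below it. Il5 thus had to differ between Th2 and these groups, and those calls add nothing to the levels. With Th1 replicate 2 left out, this held against Th1 too. In all 3 comparisons Il5 had a smaller p than Il4 and Il13, whose Th1 and Th17 arrays were further apart. Values near the floor lie close together, and the SE was 0.40 for Il5, 1.47 for Il4 and 1.32 for Il13. The smaller p is therefore no measure of a larger difference.

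Tfh was also called lower than Th1 in Il5, by 1.19 (SE 0.40, adjusted p = 0.0394), but both Tfh arrays and Th1 replicate 1 were below the filter level. The call was lost on leaving out Tfh replicate 1 (adjusted p = 0.135), Tfh replicate 2 (0.14), Th2 replicate 1 (0.0582), Th2 replicate 2 (0.058), Th17 replicate 1 (0.0624) or Th17 replicate 2 (0.0626). Without Th1 replicate 2 the difference was 0.56, under the fold threshold, and without Th1 replicate 1 it was 1.82. So Il4 and Il13 had a level on the Tfh arrays above the filter while Il5, from the same locus, did not.

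Rad50 encodes a subunit of the MRN complex, which binds broken DNA ends. Its level was 9.17 and 9.17 in Th2, 8.91 and 8.68 in Tfh, 8.54 and 8.68 in Th1, and 8.62 and 8.33 in Th17. The Th2 arrays were again the highest, by a small margin, 0.56 above Th1 (95% interval 0.14 to 0.98) and 0.69 above Th17 (0.27 to 1.11). Neither difference was called (adjusted p = 0.207 and 0.168). The direction of Rad50 between Tfh and the others hung on the scaling. As deposited Tfh was 0.19 above Th1, 0.37 below Th2 and 0.32 above Th17, and after quantile normalization it was -1.13, -1.67 and -0.99 against them, with calls against Th1 (adjusted p = 0.00318) and Th2 (0.000829). After the median shift it was -0.20 against Th1 and -0.08 against Th17. The second Rad50 probe set stood at 2.22 to 2.28 on all arrays and showed no pattern.

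Of the other MRN subunits, Mre11a stood at 9.37 to 9.90 over the 8 arrays and Nbn at 7.95 to 9.90. In Th2 against Th1 Mre11a differed by -0.16 and Nbn by -0.03, and against Th17 by 0.05 and -0.13, none of them called. Of 10 tested genes of that complex and of the damage kinases, 3 were called higher in Tfh than in Th1, and Chek1, a checkpoint kinase, was lower by 2.27 (adjusted p = 0.00176). Nbn, one of the 3, stood 1.40 higher as deposited and 0.24 after quantile normalization, without a call (adjusted p = 0.61), and its call also ended without either Tfh array (0.0976 and 0.0884) or Th1 replicate 1 (0.0691). With 42.8% of all tested genes called higher in Tfh than in Th1, 3 of 10 is no more than the background. Against Th2 2 of the 10 were called higher and against Th17 5, where 42.8% and 41.8% of all tested genes were. After quantile normalization 0 of the 10 were called higher in Tfh, and 5, 3 and 3 lower than in Th1, Th2 and Th17. Over all tested genes 2378, 2394 and 2277 were then called lower. The direction of this list thus turned with the scaling.

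Csf2, the gene for GM-CSF, was at 13.13 and 13.79 in Th1, 12.66 and 12.83 in Th2, 10.91 and 9.82 in Th17, and 8.74 and 8.65 in Tfh. The groups did not overlap, and the order ran Th1, Th2, Th17, Tfh. The steps from Th1 to Th2 (0.72, adjusted p = 0.455) and from Th2 to Th17 (2.38, adjusted p = 0.0805) were not called. Nor was that from Th1 to Th17 (3.10, adjusted p = 0.0747). The last pair of differences was called without Th17 replicate 1 (2.93, adjusted p = 0.0293, from Th2 and 3.65, adjusted p = 0.0285, from Th1). Tfh was lower than Th1 by 4.76 (SE 0.39, adjusted p = 0.000232), than Th2 by 4.05 (adjusted p = 0.000368) and than Th17 by 1.67 (adjusted p = 0.0115). Against Th17 the call depended on both Tfh arrays (adjusted p = 0.0546 without replicate 1 and 0.0619 without replicate 2).

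Il3, a growth factor of blood progenitors, mast cells and basophils, went the same way over a wider range. It stood at 14.55 and 14.94 in Th1, 12.85 and 14.55 in Th2, 11.87 and 8.81 in Th17, and 5.89 and 5.57 in Tfh. Th2 replicate 2 was level with the lower Th1 array to 2 decimals, and both Tfh arrays were far below the rest. Il3 was lower in Tfh than in Th1 by 9.02 (SE 1.04, adjusted p = 0.000764), than in Th2 by 7.96 (adjusted p = 0.00116) and than in Th17 by 4.61 (adjusted p = 0.0101). The last call ended without Tfh replicate 2 (adjusted p = 0.0573). Th1 was above Th2 by 1.05, Th1 above Th17 by 4.41 and Th2 above Th17 by 3.36, with adjusted p = 0.699, 0.259 and 0.25. In bulk RNA, fewer cells that express a gene and less RNA per cell cannot be told apart.

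**Figure D2:**
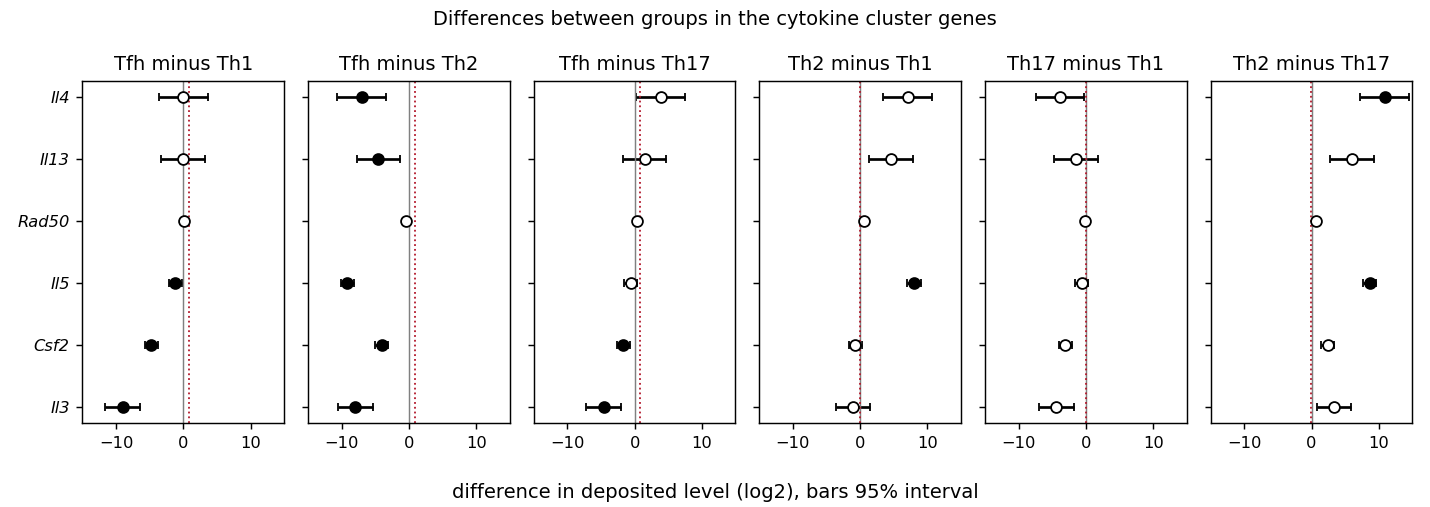
Difference in log2 level (horizontal axis) for the 6 genes in the 6 comparisons, first group minus second; bars are 95% intervals of the limma fit, filled points passed the threshold, and the dotted red line is the median of all tested genes. Filled points lie left of 0 in the Tfh comparisons (3, 5 and 2 of the 6 genes) and right of 0 for Th2 against Th1 (1) and Th17 (2).

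Over the 36 tests of 6 genes in 6 comparisons 13 were called, all of them in cytokine genes. Among them are the Il5 calls between Th2 and Tfh and between Th2 and Th17, which had to arise from the filter. Tfh was called lower than Th1 in 3 genes, than Th2 in 5 and than Th17 in 2, where 6.16%, 6.89% and 6.17% of all tested genes were called lower and 42.8%, 42.8% and 41.8% higher, 48.9%, 49.7% and 47.9% in all. Th2 was called higher than Th1 in 1 and than Th17 in 2, where 0.895% and 0.483% of all tested genes were, and 1.24% and 0.671% were called in either direction. Between Th17 and Th1 limma called 0 of the 6, 3 at an unadjusted p under 0.05, and 0.143% of all tested genes. The median difference of the 6 genes was -0.60, -5.77 and -0.11 for Tfh against Th1, Th2 and Th17, where the median of all tested genes was 0.85, 0.84 and 0.83. For Th2 against Th1 and Th17 it was 2.54 and 4.69, with -0.02 and -0.01 over all genes. The comparisons share groups, so their counts are not independent. With the Tfh arrays averaged to 1 sample, the Tfh calls of Il5 against Th1 (adjusted p = 0.138), Il13 against Th2 (0.0943), Csf2 against Th17 (0.0583) and Il3 against Th17 (0.0527) ended. With only the 2 groups compared in the fit, Il5 in Th2 against Th1 missed the threshold (adjusted p = 0.0814), and Il4 in Tfh against Th17 passed it (0.0201). All 6 genes had arrays that did not overlap between Th2 and Th1 and between Th2 and Th17, as had 43.5% and 44.5% of all tested genes. All 6 had means above Th17 in Th2, and 4 had means above Th1, Csf2 and Il3 being below. For Tfh against Th1, Th2 and Th17, arrays of 4, 6 and 5 of the 6 did not overlap, against 86.5%, 89.8% and 87% of all tested genes, and for Th17 against Th1 3, against 31.7%.

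The promoters of Il4, Il13 and Il5 are shown as the genes that were highest in Th2, with that of Il3 as a neighbour that was highest in Th1. Each is the 250 bases before the most upstream start in RefSeq, build GRCm38.p6, read 5′ to 3′ on the gene's strand, and the table held 5 of the 6 genes, Rad50 being the other. Capitals mark GGAAA, the core bound by NFAT, the factor that T cell receptor signals activate, and TGCTGA, part of the site bound by Maf proteins, each on either strand, and no match of one overlapped a match of the other.
Il4, chr11:53618666-53618915, minus strand: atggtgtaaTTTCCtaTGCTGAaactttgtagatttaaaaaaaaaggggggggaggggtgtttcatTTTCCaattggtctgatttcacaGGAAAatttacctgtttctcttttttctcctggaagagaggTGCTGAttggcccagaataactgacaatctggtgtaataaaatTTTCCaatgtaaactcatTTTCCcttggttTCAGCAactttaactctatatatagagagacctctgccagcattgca
Il13, chr11:53634703-53634952, minus strand: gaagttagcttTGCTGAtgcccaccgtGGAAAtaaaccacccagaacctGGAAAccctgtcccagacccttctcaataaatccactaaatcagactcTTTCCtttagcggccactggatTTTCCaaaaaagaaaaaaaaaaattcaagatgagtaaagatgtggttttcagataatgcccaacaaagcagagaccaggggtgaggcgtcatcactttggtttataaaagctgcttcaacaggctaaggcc
Il5, chr11:53720544-53720793, plus strand: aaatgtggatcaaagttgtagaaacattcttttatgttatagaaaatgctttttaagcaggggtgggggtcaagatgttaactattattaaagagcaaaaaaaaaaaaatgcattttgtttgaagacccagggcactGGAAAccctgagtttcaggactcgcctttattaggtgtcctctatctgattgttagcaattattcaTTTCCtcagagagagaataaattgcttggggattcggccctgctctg
Il3, chr11:54267280-54267529, minus strand: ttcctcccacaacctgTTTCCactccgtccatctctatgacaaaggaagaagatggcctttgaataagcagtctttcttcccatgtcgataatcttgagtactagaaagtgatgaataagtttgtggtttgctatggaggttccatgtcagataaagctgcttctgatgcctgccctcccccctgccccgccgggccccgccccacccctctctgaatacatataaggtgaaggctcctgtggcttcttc
The Il4 window held GGAAA 5 times and the Il13 window 4 times, against 2 in Il5, 2 in Csf2 (not printed) and 1 in Il3. Among all 27025 such windows, 55.6% held it at least once and 1.61% held it 4 times or more. TGCTGA stood 3 times in the Il4 window, once in Il13, and was not found in the other windows, where 15.8% of all windows held it and 0.144% held it 3 times or more. GATAA, 1 form of the sequence bound by GATA factors, stood once in Il13, once in Csf2 and 2 times in Il3 (23.0% of all windows). Other forms, such as GATAG, were not counted, so a window without GATAA may still hold one. The AP-1 sequence TGANTCA, where N is any base, was not found in the 5 windows (6.85% of all). A match is a description of these letters and not a bound site.

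The genes around the cluster differed in whether they followed it. Of 19 listed genes beside or between the 6, 18 had a probe set, and 11 were tested; the other 7 stood at 3.03 or below on all arrays. Kif3a, the gene next to Il4 on the side away from Il13, encodes a motor protein of cilia and axons. It stood at 11.70 and 10.53 in Th2, 6.73 and 6.72 in Tfh, 5.17 and 5.18 in Th1, and 6.34 and 6.43 in Th17. The Th2 arrays were far above the rest, as for Il4. Kif3a was higher in Th2 than in Th1 by 5.94 (SE 0.38, adjusted p = 0.00336) and than in Th17 by 4.73 (adjusted p = 0.00964), and lower in Tfh than in Th2 by 4.39 (adjusted p = 0.000265). Its call against Th17 rested on the pooled spread of both Tfh arrays (adjusted p = 0.0552 without replicate 1 and 0.0553 without replicate 2).

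Kif3a has 4 probe sets, which agreed in direction but not in size. For Th2 against Th1 the other 3 gave 3.80, 3.64 and 1.19, and for Th2 against Th17 3.52, 3.58 and 0.58; in a fit with every probe set as its own row the last was called in neither (adjusted p = 0.299 and 0.651). Septin8, the next gene outward with a level above the filter, encodes a cytoskeletal protein. It stood at 6.34 and 5.06 in Th2 and at 3.22 to 4.44 on the other arrays, 2.11 above Th1 and 1.36 above Th17 without a call, and Tfh was called lower than Th2 by 1.77 (adjusted p = 0.0152; 0.0674 without Tfh replicate 1 and 0.0724 without Tfh replicate 2). Without Th2 replicate 2 it was called higher in Th2 than in Th1 (2.74, adjusted p = 0.0405). Its 2 other probe sets stayed at 2.06 to 2.33.

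On the far side of the cluster Acsl6, the gene beside Il3, encodes an enzyme that activates fatty acids. It stood at 8.05 and 8.46 in Th1, 6.32 and 4.25 in Th17, 2.56 and 2.94 in Th2, and 2.18 and 2.16 in Tfh. Th1 was high and Tfh low, as for Il3, but the Th2 arrays were below the filter level where Il3 was at 12.85 and 14.55. Acsl6 was lower in Th2 than in Th1 by 5.51 (SE 0.64, adjusted p = 0.0226), lower in Tfh than in Th1 by 6.09 (adjusted p = 0.00054) and than in Th17 by 3.12 (adjusted p = 0.00703). The Th2 call ended if 1 array was left out, be it Tfh replicate 1 (adjusted p = 0.101), Tfh replicate 2 (0.101), Th1 replicate 1 (0.0581), Th1 replicate 2 (0.0632), Th2 replicate 1 (0.121) or Th2 replicate 2 (0.0797). Acsl6 was called lower in Th17 than in Th1 without Th17 replicate 1 (adjusted p = 0.0155), and lower in Th2 than in Th17 without Th17 replicate 2 (0.0164). A second Acsl6 probe set gave -0.27 for Th2 against Th1 and -0.83 for Tfh against Th1.

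Between Il5 and Csf2 4 of 6 genes were tested. Irf1, an interferon-induced transcription factor next to Il5, stood at 12.81 and 12.79 in Tfh and 8.97 to 11.79 in the cultured arrays, and differed by 0.20 between Th2 and Th1. Its calls for Tfh against Th1 (3.19, adjusted p = 0.021) and Th2 (2.99, adjusted p = 0.0263) ended without either Tfh array (adjusted p = 0.0864 and 0.0854, and 0.1 and 0.0991), Th1 replicate 1 (0.0843) or Th1 replicate 2 (0.0565) for the first, and Th2 replicate 1 (0.118) or Th2 replicate 2 (0.0557) for the second. Without Th17 replicate 2 it was called against Th17 too (adjusted p = 0.00201). P4ha2, an enzyme of collagen synthesis next to Csf2, was at 2.33 and 2.31 in Tfh, 7.11 and 4.87 in Th1, 3.85 and 3.92 in Th2, and 6.51 and 5.75 in Th17. It was lower in Tfh than in Th1 by 3.66 (adjusted p = 0.00532) and than in Th17 by 3.81 (adjusted p = 0.0047). Its Th2 arrays were below Th1 by 2.10 without a call, which became 3.22 and a call without Th1 replicate 2 (adjusted p = 0.0233); without Th1 replicate 1 or Th1 replicate 2 it was also called lower in Th2 than in Th17 (adjusted p = 0.0435 and 0.0453) and in Tfh than in Th2 (0.00527 and 0.00554). Slc22a5, a carnitine transporter, was higher in Tfh than in each cultured type by 1.53 to 1.74, but by 0.05 to 0.21 after quantile normalization, with no call. Beyond Acsl6, Rapgef6, which activates the GTPase Rap, stood in Tfh 1.61 above Th1, 1.64 above Th2 and 1.51 above Th17, all called (adjusted p = 0.00509, 0.00446 and 0.00663), the last not called after quantile normalization (0.94). Cdc42se2, which binds the GTPase Cdc42, was higher by 2.87, 2.44 and 2.43 (adjusted p = 0.000137, 0.000217 and 0.000253). Kif3a was also called higher in Tfh than in Th1 (1.56, adjusted p = 0.0138), which was -0.15 after quantile normalization and lost its call without Tfh replicate 1 (0.0677) or Tfh replicate 2 (0.067). Over the 11 tested genes 1 was called higher and 1 lower in Th2 than in Th1, and 1 higher than in Th17, which were Kif3a, Acsl6 and Kif3a. Of all tested genes 0.895% were called higher in Th2 than in Th1, 1.24% in either direction, and 0.483% higher than in Th17. In Tfh 5, 4 and 3 of the 11 were called higher than in Th1, Th2 and Th17, and 2 lower in each. Of all tested genes 42.8%, 42.8% and 41.8% were called higher, and 6.16%, 6.89% and 6.17% lower.

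**Figure D3:**
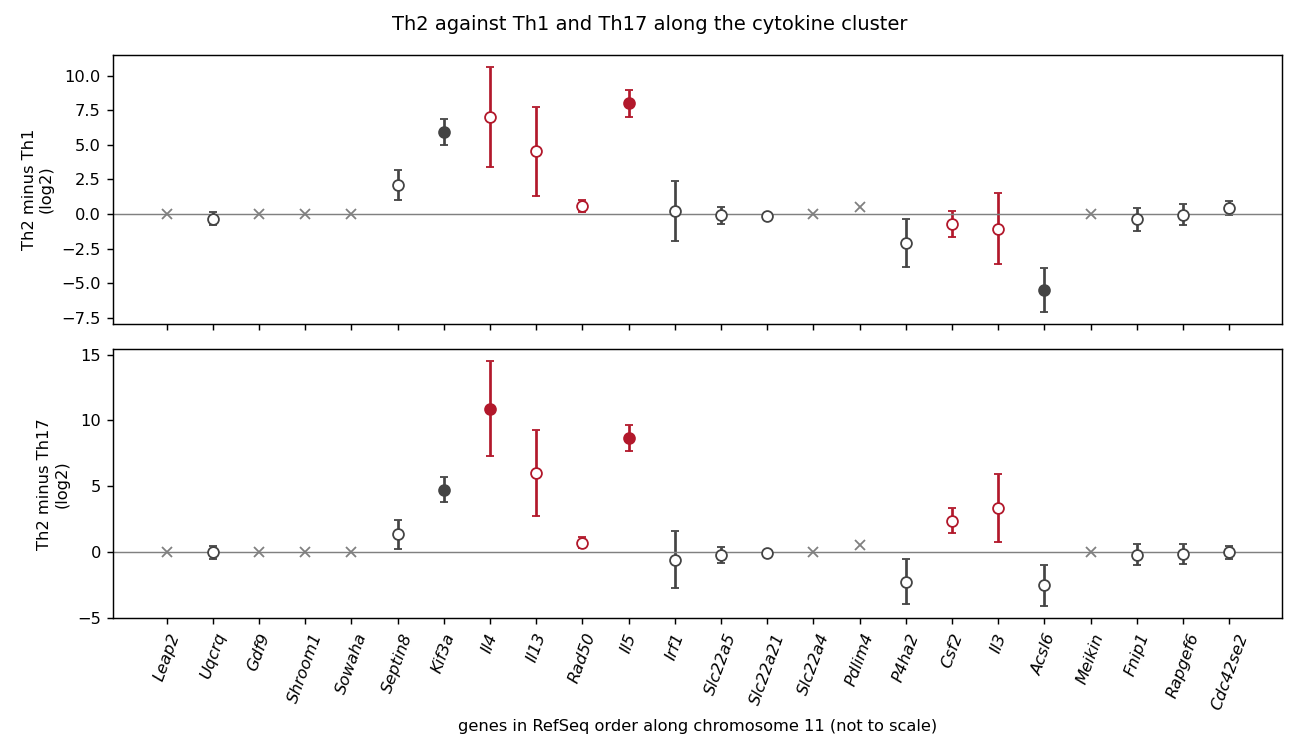
Difference in log2 level (vertical axes) of Th2 minus Th1 and Th2 minus Th17 for the 6 genes (red) and their neighbours (grey) in chromosome order, not to scale; bars are 95% intervals, filled points passed the threshold, and crosses are genes not tested. Kif3a, Il4, Il13 and Il5 stand highest in both panels, Rad50 lies at 0.56 and 0.69, Csf2 and Il3 lie below 0 in Th2 minus Th1 and above it in Th2 minus Th17, and P4ha2 and Acsl6 lie below 0 in both.

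The 2 arrays of a group also differed in the 6 genes, and 1 pair cannot show which genes vary together. Th1 replicate 2 was above replicate 1 in each of the 6, by 4.50 in Il4, 2.58 in Il13, 1.26 in Il5, 0.66 in Csf2, 0.39 in Il3 and 0.14 in Rad50. Th17 replicate 2 was below replicate 1 in each, by 3.59 in Il13, 3.06 in Il3, 2.08 in Il4, 1.10 in Csf2, 0.29 in Rad50 and 0.04 in Il5. The difference of Il4 in Th1 was larger than that of 99.7% of tested genes, and that of Il13 in Th17 than that of 99.5%. Others were of ordinary size. In Th1 the share was 57.7% for Il3 and 30.9% for Rad50, and in Th17 48% for Rad50 and 13.9% for Il5. The median tested gene differed by 0.02 in both pairs, up in Th1 and down in Th17. Other helper cytokines did not share the direction in Th1, where 2 of 14 were higher by 1 or more on replicate 2 and 4 lower. In Th2 Il3 differed by 1.70 while Il4, Il13 and Il5 differed by 0.37 or less. These are single pairs of arrays, given with no test.

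**Figure D4:**
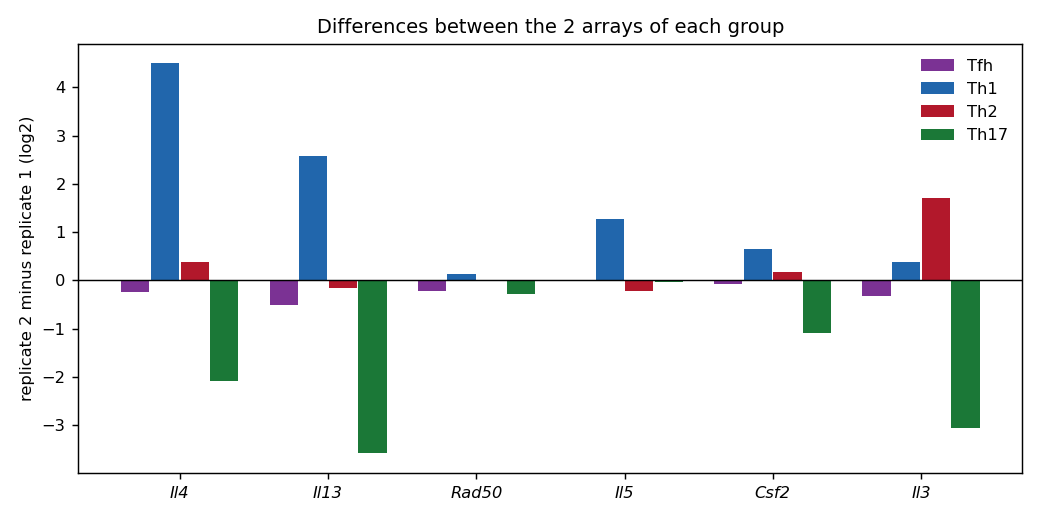
Log2 level of replicate 2 minus replicate 1 (vertical axis) for each gene, 1 bar per group. Bars of Th1 point up and bars of Th17 down for all 6 genes, and Rad50 has the shortest bars of any gene in Th1 and Th2.

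Cells other than T cells can make type 2 cytokines, and some of their markers stood high on Th2 replicate 1. Mast cells and basophils are known sources of IL-4 and IL-13. The summed log2 level of 11 markers of these cells was 62.97 on Th2 replicate 1, 31.07 on Th2 replicate 2 and 30.29 to 39.84 on the other 6 arrays. In Th1 it was 34.34 on replicate 1 and 39.22 on replicate 2, the array with more Il4 and Il13. Of 6 tested markers 3 were higher by 1 or more on Th1 replicate 2 and 0 lower. The mean of Cpa3 was 6.00 in Th1 and 6.19 in Th2. The part of such cells in the Th1 values was not tested. On Th2 replicate 1 the basophil protease Mcpt8 was at 9.17, the granule enzyme Cpa3 at 9.25 and the IgE receptor chain Fcer1a at 7.48, and on replicate 2 at 2.63, 3.13 and 2.35. Ms4a2, Cma1, Gata2 and Hdc were also highest on Th2 replicate 1. The mast cell tryptases Tpsab1 and Tpsb2 and the protease Mcpt4 were below the filter level on all arrays, and the growth factor receptor Kit was at 2.72 on Th2 replicate 1, 2.36 to 3.24 on the other cultured arrays and 8.50 and 8.47 in Tfh. Of the 11 markers 7 were above the filter level on replicate 1 and 3 on replicate 2. On Th2 replicates 1 and 2 Il4 stood at 15.20 and 15.57, Il13 at 11.39 and 11.22, and Il5 at 11.51 and 11.28. Replicate 2 was thus higher in Il4 and a little lower in Il13 and Il5. The part of mast cells and basophils in the Th2 values was not tested. Without Th2 replicate 1 Th2 stood above Th1 and Th17 by 7.22 and 11.07 in Il4, 4.44 and 5.93 in Il13, and 7.89 and 8.54 in Il5. Then only the Il5 differences were called (adjusted p = 0.0141 and 0.0108), that of Il4 against Th17 losing its call (0.179). Tfh stayed called lower than Th2 in Il4 (adjusted p = 0.0329) and Il5 (0.00046) but not in Il13 (0.0908).

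**Figure D5:**
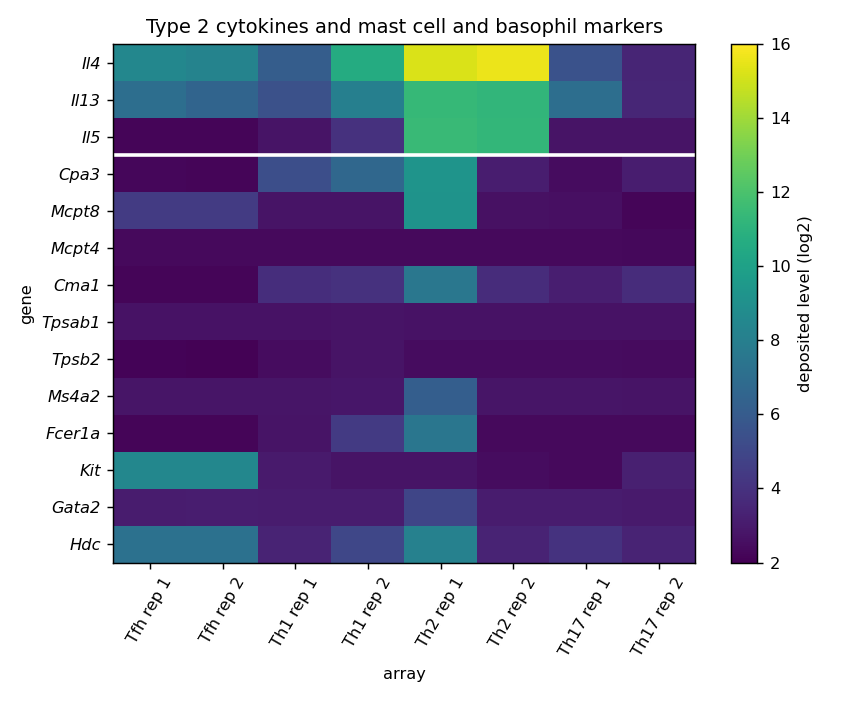
Deposited log2 level (colour) of Il4, Il13 and Il5 (above the white line) and of 11 mast cell and basophil markers (below it) on the 8 arrays. The markers Cpa3, Mcpt8, Cma1, Ms4a2, Fcer1a and Gata2 are highest on Th2 replicate 1, and the 3 cytokines are bright on both Th2 arrays.

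Other markers moved differently. Of 5 eosinophil markers Siglecf alone was tested, at 8.86 and 7.59 in Th1, 8.35 and 7.01 in Th2, 6.30 and 4.57 in Th17, and 3.03 and 2.95 in Tfh. It was called lower in Tfh than in each cultured type, but against Th17 not without either Tfh array (adjusted p = 0.112 and 0.12) and not without Th17 replicate 1 (0.134). The granule protein Prg2 was at 3.74 on Th2 replicate 1 and at 2.36 to 3.11 elsewhere, and Epx, Prg3 and Ccr3 were at 2.10 to 2.24 on all arrays. The summed level of 10 myeloid and dendritic cell markers was 83.98 and 53.57 in Th2, 70.49 and 70.61 in Tfh, 69.82 and 50 in Th17, and 27.44 and 43.22 in Th1. In Th17 the array with the higher sum, replicate 1, was also the one with more Il4, Il13, Csf2 and Il3, and in Th1 it was replicate 2. In Th2 replicate 1 had the higher sum, while Il4, Csf2 and Il3 were higher on replicate 2, by 0.37, 0.17 and 1.70. The part of these cells in the values was not tested. The summed level of 5 B cell markers was 29.40 and 29.25 in Tfh and 15.37 to 27.97 in the cultured arrays. Of 18 genes that T cell receptor signals induce early, 6 were higher and 2 lower in Tfh than in Th1, 8 and 2 against Th2, and 8 and 2 against Th17. The shares called higher, 33.3%, 44.4% and 44.4%, were near the 42.8%, 42.8% and 41.8% of all tested genes, and after quantile normalization 4, 5 and 4 were called higher. Fosb, an immediate early factor, was at 6.22 and 6.56 in Tfh and at 2.09 to 2.40 in the cultured arrays. It passed the filter through the Tfh arrays alone and so had to differ. The 2 genes called lower in Tfh were Ier3 and Il2ra in each comparison. Against Th1, Th2 and Th17 Ier3 differed by -3.23, -3.62 and -3.22, and Il2ra by -1.69, -2.68 and -2.72.

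Receptors and regulators of the cluster were listed beside it. Gata3, the factor that directs Th2 differentiation, stood at 10.44 and 11.13 in Th2, 10.67 and 10.52 in Tfh, 4.95 and 7.74 in Th1, and 5.95 and 6.97 in Th17. Tfh and Th2 thus had Gata3 levels that differed by -0.19 (SE 0.91, adjusted p = 0.865), with Il5 at 2.21 and 2.19 in the one and 11.51 and 11.28 in the other. Gata3 was higher in Tfh than in Th1 by 4.25 (adjusted p = 0.00797) and than in Th17 by 4.14 (adjusted p = 0.00904), the second lost without Tfh replicate 1 (adjusted p = 0.0518). Th2 stood 4.44 above Th1 and 4.32 above Th17 without a call (adjusted p = 0.0997 and 0.129). The Th1 comparison was called without Th1 replicate 2 (5.84, adjusted p = 0.0179), and the Th17 one without Th1 replicate 1 (adjusted p = 0.0314) or Th1 replicate 2 (0.0322).

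Maf, an activator of Il4, stood at 13.82 and 14.00 in Tfh, 13.40 and 13.87 in Th2, 11.68 and 9.10 in Th1, and 11.61 and 12.61 in Th17, and in Th2 was 3.24 above Th1 without a call (adjusted p = 0.149), and 4.53 with one without Th1 replicate 1 (0.0282). Other Maf probe sets put Tfh above Th2 by 0.365 to 2.45. In a limma fit with every probe set as its own row, 1 of them was called (1.27, adjusted p = 0.00408). Th1 replicate 2, with the higher Il4 of the pair, had the lower Maf by its main probe set and the higher Gata3. Stat6, which carries the IL-4 signal, was higher in Tfh by 2.14, 2.55 and 2.49 than in Th1, Th2 and Th17, and differed by -0.41 between Th2 and Th1. Tbx21, the Th1 factor that restrains the locus, was 2.32 lower in Th2 than in Th1 (adjusted p = 0.127) and 2.78 higher in Tfh than in Th2 (adjusted p = 0.00541). Nfatc1 was higher in Tfh than in Th2 by 3.23 (adjusted p = 0.00113), and Nfatc2 and Irf4 stood at 10.19 and 13.44 to 13.69 in Tfh and at 8.32 to 10.49 and 11.33 to 12.47 in the cultured arrays. Of 32 tested regulators limma called, as deposited, 19 higher in Tfh than in Th1, 17 than in Th2 and 16 than in Th17, among them Nfatc3, Stat6 and Stat5b. These are 59.4%, 53.1% and 50% of the list, where 42.8%, 42.8% and 41.8% of all tested genes were called higher, and after quantile normalization the list had 14, 13 and 9 such calls. Runx1 was the 1 regulator called between cultured types, higher in Th2 than in Th1 by 2.66 (adjusted p = 0.017), a call lost without Tfh replicate 1 (0.0823), Tfh replicate 2 (0.0821), Th2 replicate 1 (0.058) or Th2 replicate 2 (0.0697).

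Among 7 tested receptor genes Il3ra, the IL-3 receptor alpha chain, was above Th1 by 2.06, Th2 by 1.67 and Th17 by 1.52 in Tfh as deposited (SE 0.33), all called, the last not without Tfh replicate 2 (adjusted p = 0.0512). After quantile normalization these were 0.37, 0.02 and -0.12, with no call. Csf2rb, the signalling chain shared by IL-3, IL-5 and GM-CSF, stood at 8.88 and 8.84 in Tfh, 3.03 and 5.31 in Th1, 10.52 and 7.30 in Th2, and 8.62 and 5.67 in Th17, an order over the cultured arrays like that of the myeloid marker sums. It was called higher in Tfh than in Th1 (4.69, adjusted p = 0.0313), though not after quantile normalization (3.38, adjusted p = 0.0978) or without Tfh replicate 1 (0.113), Tfh replicate 2 (0.111) or Th1 replicate 1 (0.138). Il4ra, the receptor chain for IL-4 and IL-13, stood at 8.73 to 10.94 with no call. Of 14 other tested helper cytokines, Il9, another type 2 cytokine, was at 4.90 and 4.99 in Th2 and 2.21 to 2.48 elsewhere. It passed the filter through the Th2 arrays alone and so had to differ, and no test of it is given.

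Likeness of pattern was measured by Pearson's r of log2 levels over the 8 arrays, which share groups and the Tfh scale, and is given as a description. Il5 was most like Il9 (0.994), Ankrd36 (0.994) and Adamtsl3 (0.993). Il9 passed the filter through the Th2 arrays alone and Il5 was below it on 5 arrays. A high r between these 2 genes was therefore bound to arise and adds nothing to their levels. Any gene high on the Th2 arrays alone would have a high r with Il5, so the values of Ankrd36 and Adamtsl3 add little more. Il4 was most like Ube2w (0.976), Il13 (0.962) and Nsmce1 (0.954), and Il13 most like Il4, Ube2w (0.960) and Tg (0.959). After quantile normalization r between Il4 and Ube2w was 0.497 and between Il4 and Il13 0.953, so the second value leaned less on the scale of the Tfh arrays. Csf2 was most like Lzic (0.982), Spout1 (0.981) and Il3 (0.978), and Il3 most like Spout1 (0.984), the chemokine gene Ccl3 (0.978) and Csf2. Rad50 was most like Tbl2 (0.968), Fcmr (0.948) and Tvp23b (0.947). Between the 2 ends of the cluster r was lower, 0.473 for Il4 and Csf2 and 0.389 for Il4 and Il3. Over the 8 arrays Rad50 had r of 0.932 with Il4 and 0.195 with Il3 as deposited, and of 0.631 and 0.903 after quantile normalization. Which end it resembled there turned with the scaling. On the 6 cultured arrays alone r with Rad50 was 0.965 for Il4, 0.983 for Il13, 0.958 for Il5, 0.507 for Csf2 and 0.5 for Il3. Without the Tfh arrays Rad50 was thus more like the Il4 end, though its own levels stayed within 1 log2 unit.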

How the data were processed

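Transcript levels came from 8 Affymetrix arrays with biotin-labelled RNA. The deposited values are log2 levels, summarized by the authors with GCRMA per the submitters' processing notes; no source used here gives its version or says which arrays it was run on together. They were analysed as deposited, and 2 arrays per group limit the precision.

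Probe sets were named through GEO's platform annotation; 34945 had 1 symbol, 932 several, 9160 none, and 64 were controls. Each of 18193 genes was read by its probe set of highest mean, and 11178 were tested, those exceeding 3.13 (the 50th percentile over the whole table) on at least 2 arrays. Differences were tested two-sided with limma 3.58.1 (R 4.3.3), fitting each group's mean over all 8 arrays with a variance trend; there were 4 residual degrees of freedom and 1.78 from the prior. The scripts were tested on simulated data. A call needed a Benjamini-Hochberg adjusted p under 0.05 and a difference of at least 1. SE is that of the fit and SD that of 2 arrays. RefSeq GRCm38.p6 gave the promoters, and RefSeq the gene order. Plots used matplotlib 3.10.9.

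Named were the 6 genes, their neighbours with a call, up to 3 genes a list with the smallest adjusted p, a set of regulators and MRN subunits, and the 3 genes most like each. The mast cell, basophil and eosinophil markers, Csf2rb, Il4ra, Ier3, Il2ra and the lineage markers were chosen after their values were seen. The genes and lists were chosen with earlier results of these data known.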

Additional observations from a re-analysis of the deposited data

How the results depend on the processing

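Over the alternatives that did not leave out an array, directions turned for Il4 in Tfh against Th1 (-1.38 after quantile normalization and -0.38 after the median shift), Rad50 in Tfh against Th1 (-1.13 and -0.20) and Th17 (-0.99 and -0.077), and Il13 in Tfh against Th17 (-0.047 after quantile normalization). The number of the 6 genes called for Th2 against Th17 fell from 2 to 1 after the median shift, with no filter, with the probe set of largest variance, without trend, with robust trend, with the 2 groups alone, with the 6 cultured arrays alone, with every probe set as its own row, with Tfh averaged and with the replicate block, the call of Il4 being the one lost. It was 0 with the block on the cultured arrays alone and with a filter on 4 arrays, which leaves Il5 untested. For Th2 against Th1 it was 0 with the 2 groups alone, with that filter and with that block, and for Tfh against Th17 0 with Tfh averaged to 1 sample, an alternative added after the data were seen. Leaving out each array gave 2 to 3, 4 to 5 and 0 to 3 calls for Tfh against Th1, Th2 and Th17, 1 to 2 for Th2 against Th1, 0 to 1 for Th17 against Th1 and 1 to 2 for Th2 against Th17. The cause of these changes was not tested. Without an array, the direction turned for Il4 (-2.23 to 2.26) and Il13 (-1.29 to 1.28) in Tfh against Th1, for Il13 in Tfh against Th17 (-0.31 to 3.28) and Th17 against Th1 (-3.29 to 0.30), and for Rad50 in Th17 against Th1 (-0.28 to 0.010). Deviations from the group mean on arrays of the same replicate number correlated at -0.0018 to 0.0424 between Tfh and the cultured types. Among the cultured types r was 0.00442 for Th1 and Th2, 0.255 for Th1 and Th17, and 0.268 for Th2 and Th17. With 2 arrays a group this cannot show whether arrays of the same number shared a batch or culture. The replicate block moved all calls for Th17 against Th1 from 16 to 5.

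Over all tested genes, higher and lower calls in Tfh were 4780 and 689 against Th1 as deposited, 3544 and 1160 after the median shift, and 1743 and 2378 after quantile normalization; 4784 and 770, 3645 and 1212, and 1800 and 2394 against Th2; and 4667 and 690, 3319 and 1127, and 1557 and 2277 against Th17. Calls between cultured types ranged from 7 to 162 around 139 for Th2 against Th1, 0 to 20 around 16 for Th17 against Th1, and 6 to 93 around 75 for Th2 against Th17. Without Tfh replicate 1 they were 27, 3 and 23, without Tfh replicate 2 27, 3 and 24, and without Th2 replicate 1 69, 10 and 46. They were 103 for Th17 against Th1 without Th1 replicate 1, 230 for Th2 against Th1 without Th1 replicate 2, and 154 and 216 for Th2 against Th17 and Th1 without Th17 replicate 1. Th2 against Th1 gave 215 without Th17 replicate 2, Th2 against Th17 127 and 128 without Th1 replicates 1 and 2, and Th17 against Th1 66, 10, 64 and 34 without Th1 replicate 2, Th2 replicate 2, Th17 replicate 1 and Th17 replicate 2.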
